A study of Oryza sativa Indica Group with 10 samples.

Results

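Rice seedlings in which knock-down of OsbZIP48 had a lethal phenotype (KD lethal) were compared with seedlings carrying the empty pANDA vector, a vector built for RNA interference. The comparison took the 4 arrays that the labels give to these groups, 2 biological replicates each, out of 10 arrays in the series. All seedlings were of the cultivar Pusa Basmati 1, an Indica rice, grown in light at 28 °C on half-strength Murashige and Skoog medium, with no treatment. The other groups were knock-down seedlings of normal appearance (KD wild-type-like), used here as a side reference, OsbZIP48 over-expression seedlings (OE) and the empty vector B4NU. Seedling age is 10 days by the sample labels but 7 days by the text on the design of the series. The samples are labelled as whole seedlings, although roots are what the RNA protocol mentions. The labels name neither the number of seedlings or transgenic lines behind an array nor the vector used for each transgene, and pANDA was taken as the control of the knock-down.

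OsbZIP48 encodes a basic leucine zipper transcription factor related to HY5 of Arabidopsis. HY5 acts downstream of the photoreceptors and switches on genes for greening when a seedling reaches the light. A double-stranded RNA made from a vector such as pANDA is cut into small RNAs that direct the breakdown of the matching transcript. OsbZIP48 itself has no probe set named for it in the annotation given, so its level was not analysed here and could not serve as a check of the labels.

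Transcripts were measured on 1-colour Affymetrix rice arrays, and values are log2 signals as the authors deposited them. Replicates correlated across probe sets at r = 0.997 in pANDA and 0.981 in KD lethal, whereas KD lethal and pANDA arrays correlated at 0.877 to 0.891 (probe sets are not independent replicates). The 3' signal of ubiquitin, GAPDH and cyclophilin transcripts exceeded that of the 5' and middle parts by 1.43 and 1.47 (log2) on the pANDA arrays, and by 1.03 and 0.37 on KD lethal replicates 1 and 2. Those values moved with the groups, and their part in the differences below was not tested. Between 65.7 and 68.9% of the values of an array were within 0.5 (log2) of the lowest one. Where both arrays of a group lay that low, the gene is said to be at the floor, and a fold against such a group is a lower bound, written "at least". The number of arrays limits the precision.

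Knock-down with a lethal phenotype went with a broad change in transcript levels, and falls of 16-fold or more were more numerous than rises of that size. Of 17905 genes, each represented by 1 probe set, 4698 (26.2%) passed the test in limma at an adjusted p under 0.05, of which 2599 (14.5%) were higher in KD lethal and 2099 (11.7%) lower. Over all probe sets the count was 7000 of 57258 (12.2%). Falls of at least 16-fold were found in 164 genes and rises of that size in 69 genes. The median size of a called change was 1.95 (log2) for falls and 1.47 for rises, while the median difference of all 17905 genes was 0.02. Of the called genes, 399 were at the floor in KD lethal only and 380 in pANDA only. The share of higher calls depended on which array was left out. Of all called probe sets 55.8% were higher, against 68.6% and 66.5% without KD lethal replicate 1 or 2 and 38.0% and 40.3% without pANDA replicate 1 or 2. The groups did not overlap in 69.6% of all genes, so lack of overlap alone marks no gene.

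**Figure D1:**
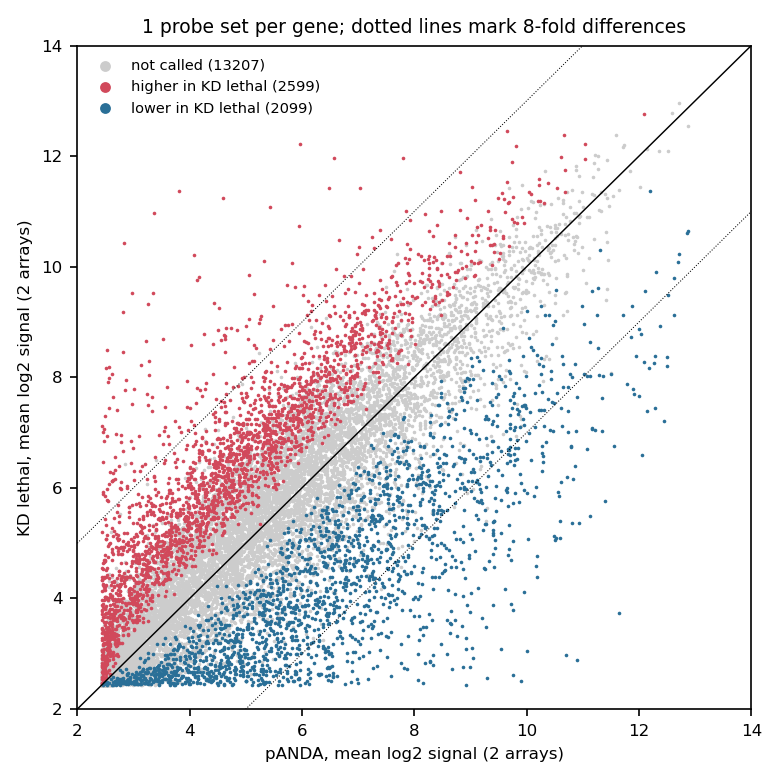
Mean log2 signal of each of 17905 genes in pANDA (horizontal axis) and in KD lethal (vertical axis), 2 arrays a group, with genes called higher in red (2599) and lower in blue (2099). More blue than red points lie beyond the dotted 8-fold lines, 434 genes against 170.

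Because the RNA came from whole organisms or from roots, markers of tissues were read first. Genes of green leaves were lower in KD lethal. Of 10 leaf markers, 7 fell and 0 rose, and their summed linear signal was 26200 and 25500 on the pANDA arrays against 4025 and 4546 on the KD lethal arrays. Leaf markers such as the light-harvesting gene CAB2R (12.80 and 12.93) and RBCS (12.50 and 12.49) had high signals in pANDA, although the RNA protocol names roots. Of 17 root-linked markers 4 fell and 1 rose, the summed signal was 2283 and 2330 in pANDA against 438 and 416 in KD lethal. The falls were Lsi1, Lsi2, NAS1 and NAS2, while the median difference of the 17 was -0.01 and 9 of them, IRT1, SHR1 and SCR1 among them, were at the floor in pANDA. Of 35 markers of dividing cells 4 fell, near the 11.7% of all genes called lower, and 0 rose. Their summed signals were 5092 and 4539 in pANDA against 2467 and 2016 in KD lethal. Of 11 seed storage markers 0 were called by limma and 2 had an unadjusted p under 0.05, with 8 at the floor in pANDA, 9 in KD lethal, and sums of 153 and 164 against 109 and 101. In RNA from whole seedlings, fewer cells of a type and less RNA per cell cannot be told apart, and the part of tissue makeup in the results below was not tested.

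Among the 15 named genes with the largest rises, RAB21 (LOC4350454), a dehydrin gene that responds to water loss and abscisic acid, stood at 3.85 and 3.76 in pANDA and at 11.46 and 11.29 in KD lethal. Both KD wild-type-like arrays were also high, at 10.18 and 10.07, so most of the RAB21 difference was present without the lethal phenotype. ICL (LOC4343441), the isocitrate lyase gene of the glyoxylate cycle, was at 3.21 and 3.31 in pANDA against 8.73 and 9.93, a rise of 6.07 ± 0.43 (log2, SE; adjusted p = 0.000976). Here the KD wild-type-like arrays, at 4.92 and 4.80, lay nearer to pANDA. Pir7b (LOC4326788), an esterase gene of the defence response, was nearly equal in pANDA (5.43 and 5.44) and KD wild-type-like (5.45 and 5.34) and stood at 10.76 and 11.39 in KD lethal, 49.9-fold higher than in pANDA (adjusted p = 0.000137). In OE seedlings Pir7b fell by 2.46 on the log2 scale against B4NU (adjusted p = 0.00902), a comparison in which 2.88% of genes were called. Over the 15 rises OE was called in the same direction for 2 genes, RAB21 and PM1, and in the opposite one for 2, Pir7b and LAC24, and over the 15 falls in the same direction for 2, GDCSH and Lsi1.

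Other large rises included the laccase gene LAC24 (LOC4351915; 43.1-fold), the transcription factor gene NAC45 (LOC4349650; 33.8-fold), the nucleoredoxin gene OsNrx1-2 (LOC4333077; 30.7-fold) and PXG (LOC4336376; 30.3-fold). R1C-Prx (LOC4344045), a 1-Cys peroxiredoxin gene of a kind known from seeds, was at the floor in pANDA (2.50 and 2.61) and at 7.51 and 7.38 in KD lethal, at least 29.6-fold higher. LEA19 (LOC4339480) and PM1 (LOC4338635), both genes of late embryogenesis proteins, rose 26.5-fold and at least 26.3-fold. For both the KD wild-type-like arrays lay between the other groups, at 6.86 and 6.96 for LEA19 and at 4.40 and 4.45 for PM1. HSP16.9A (LOC4325697), a small heat shock protein gene, rose 19.9-fold, and OAT (LOC4333554), which encodes ornithine aminotransferase, and salT (LOC4326471), a lectin gene induced by salt, each 17.9-fold. AOX1 (LOC4336874), the mitochondrial alternative oxidase, stood at 8.88 and 8.82 in KD lethal and between 4.81 and 4.86 on all 4 pANDA and KD wild-type-like arrays, a rise of 16.1-fold. ta4 (LOC4329846) completed the list of 15 at 27.8-fold. These 15 calls held with any 1 of the 4 arrays left out.

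Among the 15 named genes with the largest falls, PIP2-7 (LOC4347729), a plasma membrane aquaporin gene, stood at 9.81 and 9.70 in pANDA and at 10.06 and 10.21 in KD wild-type-like, but at the floor in KD lethal (2.64 and 2.58). The fall was at least 141-fold (adjusted p = 0.00206). The metallothionein gene MT-1-4b (LOC4352582) went from 9.72 and 9.78 to 3.52 and 4.04, a 62.6-fold difference. The peroxiredoxin gene PRXIIE-2 (LOC4328586) fell by 5.78 ± 0.33 (log2, SE), from 9.25 and 9.29 to 3.43 and 3.55. The KD wild-type-like means were 0.38 and 0.47 (log2) above pANDA for PIP2-7 and MT-1-4b and differed by -0.21 for PRXIIE-2. PRX74 (LOC4339222), a secreted peroxidase gene, fell 43.2-fold, and the germin-like gene GER5 (LOC4345763) 36.7-fold. The copper transporter gene COPT1 (LOC4324610) fell 26.3-fold and the vacuolar iron transporter gene VIT1.2 (LOC4346978) 21.7-fold. BURP2 (LOC4338119) fell by 4.34 ± 0.75 with KD lethal arrays at 8.52 and 6.80, and lost its call without KD lethal replicate 2 or either pANDA array. RCABP69 (LOC4343583) fell 18.6-fold.

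Of the 15 rises, KD wild-type-like stood within 1 (log2) of pANDA in 10 genes and more than 1 higher in 5, namely RAB21, ICL, PXG, LEA19 and PM1. Of the 15 falls, it stood within 1 in 11 genes and more than 1 lower in 4, namely NAS1, NAS2, PRX74 and DREB1G. When KD lethal was compared directly with KD wild-type-like, a comparison that uses the same KD lethal arrays, all 30 genes were called, RAB21 with the smallest difference, 1.25 ± 0.16 (log2, SE; adjusted p = 0.00819). In that comparison 4265 of 17905 genes (23.8%) were called.

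**Figure D2:**
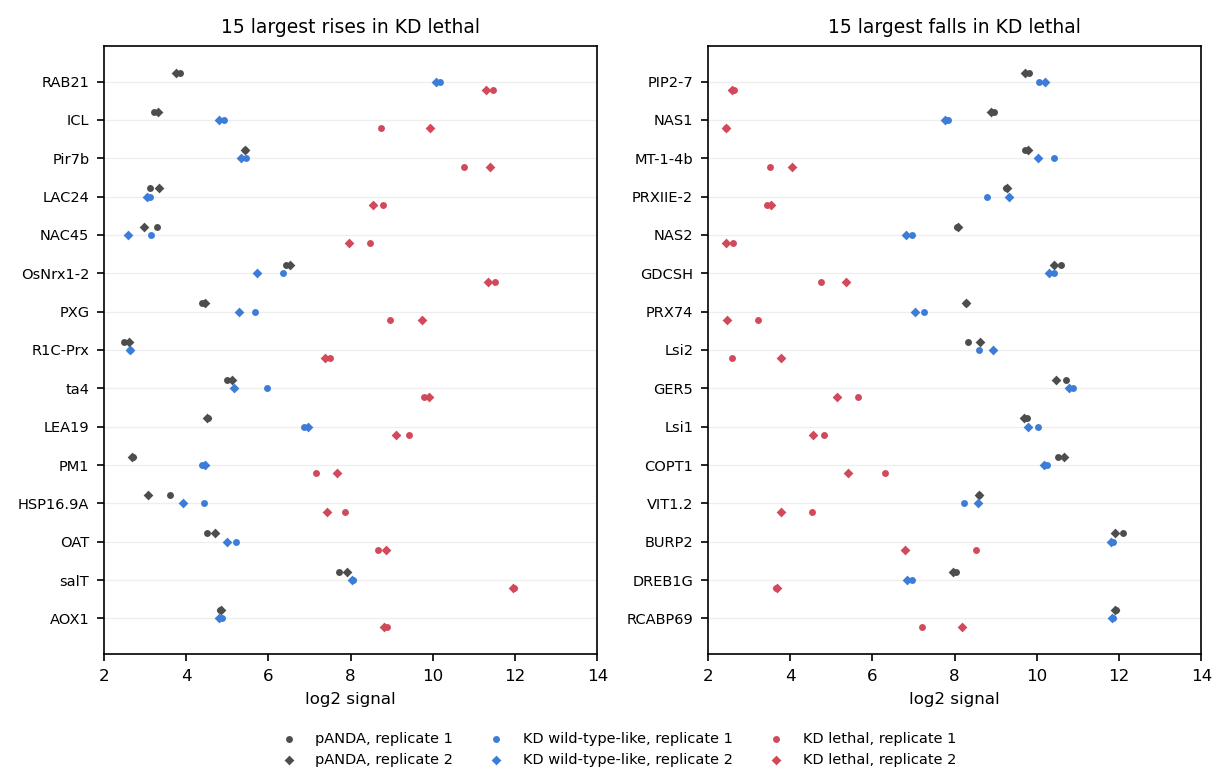
Log2 signal on each array for the 15 largest rises (left) and 15 largest falls (right) among called genes with a name, pANDA in grey, KD wild-type-like in blue and KD lethal in red, circles for replicate 1 and diamonds for replicate 2. The blue points sit beside the grey ones for most genes and midway or nearer the red ones for RAB21, LEA19 and PM1.

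Photosynthesis genes were lower in KD lethal from light capture to carbon fixation. All 4 genes of the photosystem and light-harvesting list fell (median -3.10, against 0.02 for all genes). PSB28 (LOC4326537), an assembly factor of photosystem II, stood at 8.97 and 8.97 in pANDA and at 4.98 and 4.58 in KD lethal, 18.2-fold lower (adjusted p = 0.00541). PSAH (LOC4339593), a subunit of photosystem I, fell 13.2-fold, LHCP (LOC4333359) 5.56-fold and CAB2R (LOC4324599) 4.68-fold. Without either pANDA array only PSB28 of these 4 was called. Of 6 genes of electron transport 4 fell. The Rieske protein gene petC (LOC4343570) stood at 11.87 and 11.85 in pANDA and fell by 3.14 (log2), and the leaf ferredoxin reductase gene LFNR1 (LOC4339874) from 8.68 and 8.43 to 4.70 and 4.54. The plastocyanin gene PETE (LOC4339833) kept a high signal, 10.63 and 10.60, after a fall of 4.73-fold. The remaining pair, both named FNR, had differences of 0.63 that were not called.

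In the Calvin cycle and photorespiration list 7 of 11 genes fell and 0 rose (median -2.46), and 4 fell without either pANDA array. RBCS (LOC4351966), the small subunit of Rubisco, stood at 12.50 and 12.49 in pANDA and at 8.32 and 8.41 in KD lethal. RBCS fell by 4.12 ± 0.09 (log2, SE; adjusted p = 3.58e-05). GDCSH (LOC4349114), the H subunit of glycine decarboxylase in photorespiration, fell by 5.44 ± 0.21, from 10.59 and 10.41 to 4.76 and 5.36. The fructose bisphosphatase gene CFBP1 (LOC4325071) fell 5.49-fold.

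Chlorophyll synthesis followed the same direction from its first committed step to the last. Of 12 genes 8 fell, 0 rose, and all 12 differences were negative (median -1.79, range -3.36 to -0.58). GluTR (LOC4349044), glutamyl-tRNA reductase at the entry of the pathway, stood at 9.62 and 9.78 in pANDA and at 6.62 and 6.87 in KD lethal, 7.75-fold lower. PORB (LOC4349004), which reduces protochlorophyllide in the light, fell 10.2-fold, CAO (LOC4349433), which makes chlorophyll b, 7.14-fold, and CHLP (LOC4330711), which supplies the phytol tail, 10.3-fold. The KD wild-type-like arrays were close to pANDA here, at 10.49 and 10.32 for CHLP against 10.41 and 10.41. Upstream of the phytol tail, CLA1 (LOC4338768) and DXR (LOC4326153), the entry enzymes of plastid isoprenoid synthesis, fell 12.6-fold and 2.77-fold, and the phytoene synthase gene PSY2 (LOC4352846) fell 2.34-fold. In that list of 18 genes 4 fell and 1, MCS, rose (27.8% called, against 26.2% of all genes), the last call being lost without pANDA replicate 1, when 3 fell.

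Of 21 genes of chloroplast development 6 fell and 1 rose (median -0.46), against 11.7% and 14.5% of all genes. PSY1, PSY2 and DXR among these falls were already counted in the plastid isoprenoid list. With any 1 array left out 5 fell. GLK1 (LOC4340977), a transcription factor that activates photosynthesis genes, went from 5.40 and 5.48 to 4.05 and 4.12, a fall of 1.35 ± 0.08, while KD wild-type-like stood above pANDA at 6.08 and 5.90. ASL1 (LOC4325273) fell 9.84-fold and the plastid ribosomal protein gene CL18 (LOC4334651) 7.80-fold. A further plastid-linked gene stood in the ribosome list, RPL27 (LOC4327257), also named CL27, which fell 18.5-fold. NDH-M (LOC4336530), a subunit of the chloroplast NDH complex, fell 10.1-fold. Of 5 genes of chlorophyll breakdown and senescence 2 rose and 0 fell. NYC1 and the senescence protease gene SAG12 were called higher by 1.36 and by at least 1.89 (log2), and neither call held without either pANDA array. SGR, the stay-green gene, differed by 1.25 without a call (adjusted p = 0.509), and NOL, a chlorophyll b reductase gene, by -1.39 (adjusted p = 0.103).

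**Figure D3:**
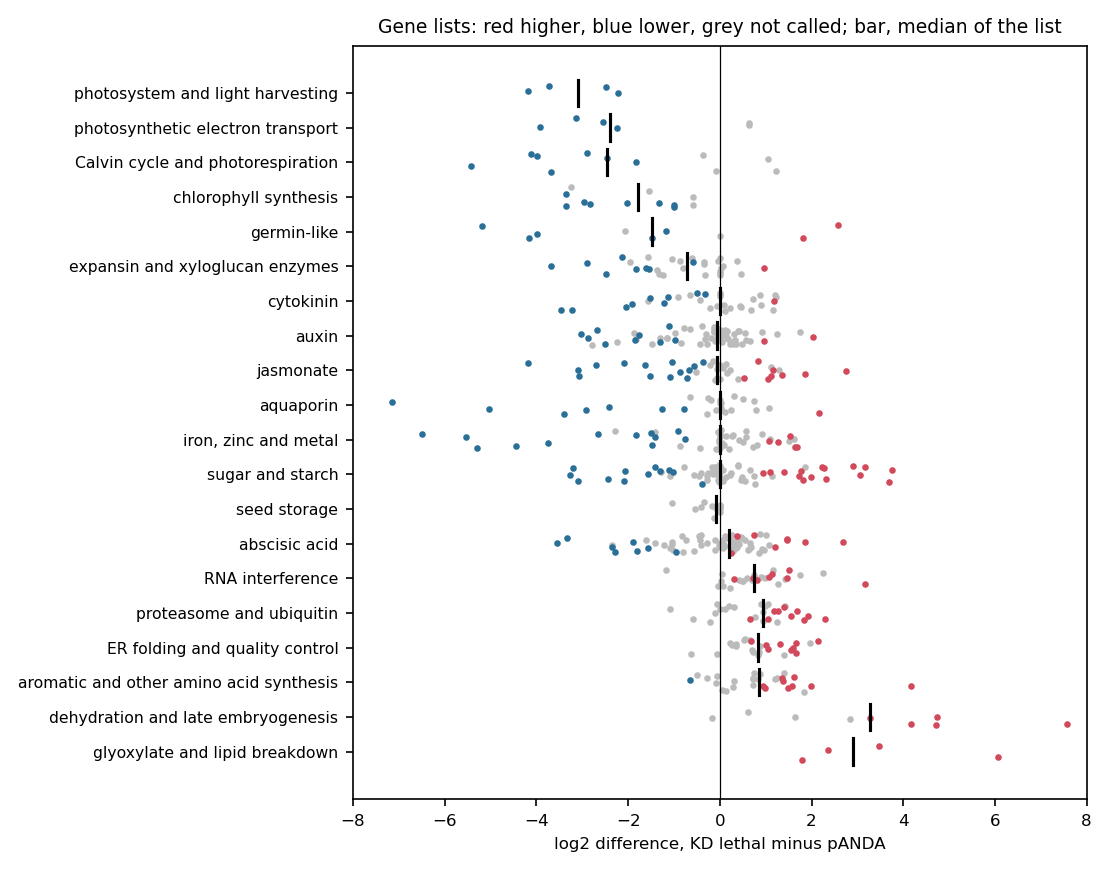
Log2 difference between KD lethal and pANDA for each member of 20 gene lists, 1 point a gene, red for higher, blue for lower and grey for not called, with a black bar at the median of the list. The medians of the photosynthesis and chlorophyll synthesis lists lie left of 0 and those of the dehydration and glyoxylate lists right of it, with single members on the other side in some, and the hormone, metal and sugar lists spread to both sides around medians near 0.

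All 4 genes of the glyoxylate and lipid breakdown list rose (median 2.91), with every single array left out as well. The malate synthase gene MS (LOC9268154), which acts beside isocitrate lyase, stood at 5.94 and 6.09 in pANDA and at 9.39 and 9.57 in KD lethal, 11.1-fold higher (adjusted p = 5.49e-05). MFP (LOC4328997), the multifunctional protein of fatty acid oxidation, rose 5.10-fold and Aconitase (LOC9270306) 3.44-fold. KD wild-type-like arrays were above pANDA for MS (6.94 and 6.93) but not for Aconitase (6.07 and 6.16).

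Sugar and starch genes went both ways. Of 72 genes 15 rose and 12 fell (37.5% called, against 26.2% of all genes), and 9 rose and 7 fell without KD lethal replicate 1, 6 and 8 without pANDA replicate 1, and 7 and 8 without pANDA replicate 2. SUS4 (LOC4332788), a sucrose synthase, rose by 3.75 (log2), from 6.02 and 5.75 to 9.56 and 9.70. SS1 (LOC9269493), also named SSI, a soluble starch synthase, rose 12.8-fold, and the sugar transporter gene SWEET4 (LOC4329093) 8.97-fold. In contrast, AMY1.4 (LOC4345812), an alpha-amylase gene also named RAmy3E, stood at 5.67 and 5.81 in pANDA and at the floor in KD lethal, a fall of at least 8.51-fold. In glycolysis and fermentation 5 of 17 genes rose and 1 fell, against 14.5% and 11.7% of all genes. The alcohol dehydrogenase gene Adh2 (LOC4350054) went from 9.07 and 9.14 to 6.38 and 5.84, and kept its call with any 1 array left out. The cytosolic GAPDH gene GAPC (LOC4344564) rose 3.27-fold, and 3, 2 and 0 genes of the list were higher without KD lethal replicate 2, pANDA replicate 1 and pANDA replicate 2.

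In the list of mitochondrial respiration 6 of 21 genes rose and 1 fell (33.3% called, against 26.2% of all genes; median 0.69). The fall was NDH-M, which belongs to the chloroplast NDH complex, so no mitochondrial gene of the list was called lower. Without pANDA replicate 2, 3 rose. Beside AOX1, the succinate dehydrogenase gene FP (LOC4342350), also named SDH1, rose 3.76-fold from 8.17 and 8.30, and the adenine nucleotide carrier gene ANT (LOC4330539) rose 2.21-fold from 10.45 and 10.30.

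Several genes of nitrogen assimilation fell, and others rose. GLN2 (LOC4337272), plastid glutamine synthetase, stood at 10.01 and 9.88 in pANDA and at 5.60 and 6.31 in KD lethal, 15.9-fold lower (adjusted p = 0.000712). GLN1-2 (LOC4332108), a cytosolic form, fell 3.05-fold, and the ammonium transporter gene AMT1-2 (LOC4330008) fell to the floor, by at least 9.27-fold. The glutamate synthase genes GLT2 (LOC4339561) and Fd-GOGAT (LOC4344164) and the nitrate reductase gene NIA1 (LOC4345795), named after their values were seen, fell at least 11.9-fold, 5.50-fold and 8.79-fold. GLN1-3 (LOC4333896), another cytosolic glutamine synthetase, and GDH2 (LOC4336554), also named after their values were seen, rose at least 5.6-fold and 2.34-fold. GLN1-1 (LOC4330649) differed by 1.39 (log2) without a call (adjusted p = 0.134). KD wild-type-like stood below pANDA for GLN1-2 and AMT1-2, at 10.40 and 10.39 for GLN1-2 and at 4.90 and 5.08 for AMT1-2. Over the phosphate and nitrogen list 5 of 42 genes rose and 7 fell (28.6% called), and 3 rose without either pANDA array. The share called in this list was near the 26.2% of all genes. The phosphate transporter gene PHT1-2 (LOC4335115) was at the floor in pANDA and at 3.66 and 3.63 in KD lethal, a small rise of at least 1.66-fold. Genes of amino acid synthesis leaned the other way, with 9 of 28 higher and 1 lower (median 0.85), against 14.5% and 11.7% of all genes. OAT rose most. ASA2 (LOC4332341), an anthranilate synthase of tryptophan synthesis, rose from 4.63 and 4.75 to 6.11 and 6.25, and the arginine decarboxylase gene ADC2 (LOC4334917) 3.95-fold. Without KD lethal replicate 2 or pANDA replicate 1, 5 of the 28 were higher, and 3 without pANDA replicate 2.

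**Figure D4:**
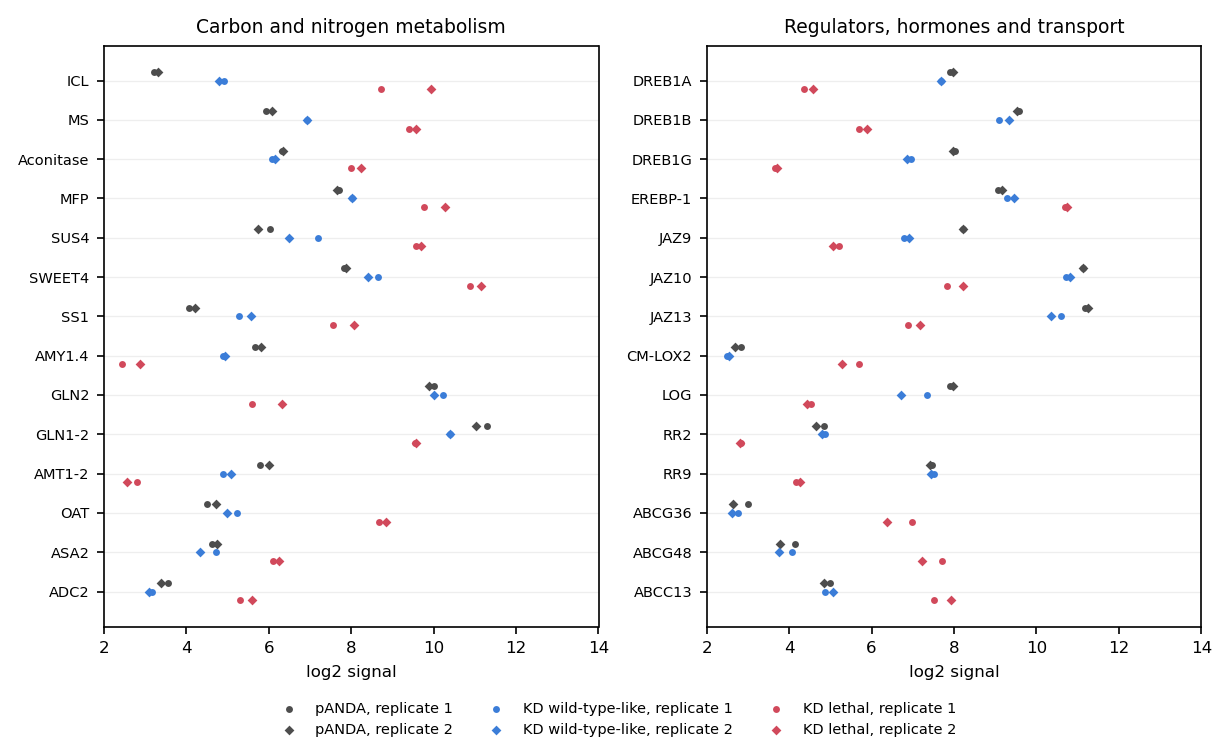
Log2 signal on each array for genes of carbon and nitrogen metabolism (left) and for regulator, hormone and transport genes (right), pANDA in grey, KD wild-type-like in blue and KD lethal in red, circles for replicate 1 and diamonds for replicate 2. The red points lie above the grey ones for ICL, MS, SUS4, OAT and the ABC transporter genes shown and below them for GLN2, DREB1A, JAZ13 and LOG.

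Water-stress genes split by family. Of the 9 genes of the dehydration list 5 rose and 0 fell (median 3.27), RAB21, LEA19, PM1, salT and RAB16D. The dehydrin gene Dhn1 (8.07 and 7.91 in pANDA, 8.51 and 7.13 in KD lethal) overlapped between the groups. Probe sets of the RAB16 family may share signal, because the genes are similar. Of 5 genes of DREB1 transcription factors, which respond to cold, 4 fell and DREB1C was at the floor in both groups. DREB1G (LOC4330306) went from 8.02 and 7.97 to 3.66 and 3.69, DREB1B (LOC4347618) from 9.58 and 9.52 to 5.69 and 5.89, and DREB1A (LOC4347620) from 7.89 and 7.98 to 4.35 and 4.59. The KD lethal arrays of DREB1G, DREB1B and DREB1A lay well below the pANDA arrays, with falls of 20.0-fold, 13.6-fold and 11.1-fold. EREBP-1 (LOC4330935), an ethylene-response factor gene, rose 3.03-fold. Over the 12 AP2-type genes 4 fell and 2 rose, and 4 fell and 2 to 4 rose with any 1 array left out, 4 without KD lethal replicate 2. Of 72 genes of abscisic acid signalling 8 rose and 8 fell (22.2% called, against 26.2% of all genes), with 5 and 5 without pANDA replicate 1 and 6 and 5 without pANDA replicate 2. The kinase gene SAPK1 (LOC4333017) rose 3.64-fold, and the protein phosphatase genes OsPP2C01 (LOC4324414) and OsPP2C61 (LOC4342246) fell 11.7-fold and 10.2-fold.

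Aquaporin genes, which encode water and solute channels, were called in 8 of 25 cases (32.0%, against 26.2% of all genes), 7 lower and 1 higher. The exception was PIP1-3 (LOC4331194), at 9.66 and 9.81 in pANDA and 11.83 and 11.97 in KD lethal, a rise of 4.48-fold. With 1 array left out, 3 or 4 aquaporin genes were lower and 1 higher. The silicon channel genes Lsi1 (LOC4330713) and Lsi6 (LOC4340558) fell 32.7-fold and 10.6-fold, and the silicon efflux gene Lsi2 (LOC4331328) went from 8.32 and 8.62 to 2.58 and 3.78. For iron, the nicotianamine synthase genes NAS1 (LOC4332608) and NAS2 (LOC4332607), which make a metal chelator, fell to the floor, by at least 89.6-fold and 46.3-fold. They are near-identical neighbours, so their probe sets may share signal. NAS1 also differed between pANDA (8.96 and 8.89) and KD wild-type-like (7.85 and 7.77), though far less. The zinc transporter gene ZIP1 (LOC4326394) fell to the floor from 6.54 and 6.47, and NAAT1 (LOC9267778), the next enzyme after nicotianamine synthase in the mugineic acid pathway, fell 3.53-fold. Of 50 metal genes 12 fell and 5 rose, against 11.7% and 14.5% of all genes. The 5 rises were tom1 (LOC4330406; 3.13-fold), tom2 (LOC4349503; 2.43-fold), BHLH063 (LOC4332972; at least 2.89-fold), ZIP4 (LOC4344937; 3.23-fold) and ZIP3 (LOC4338051; 2.09-fold). Without either pANDA array 9 metal genes fell and 2 rose.

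Cytokinin and jasmonate genes were lower more often than higher, while auxin genes fell at a share near the 11.7% of all genes. Of 31 cytokinin genes 9 fell and 1 rose (32.3% called, against 26.2% of all genes). LOG (LOC4324445), which activates cytokinins, stood at 7.91 and 7.96 in pANDA and at 4.52 and 4.44 in KD lethal, a difference of -3.46 (log2; adjusted p = 0.000852). The response regulator gene RR9 (LOC4349747) fell 9.29-fold from 7.45 and 7.42, and RR2 (LOC4329677) at least 3.79-fold, both with KD wild-type-like at the pANDA level. RR5 was at the floor in both groups. Of 67 auxin genes 9 fell and 2 rose (16.4% called, below the 26.2% of all genes), with 5 and 1 without pANDA replicate 1 and 3 and 1 without pANDA replicate 2. The repressor gene IAA24 (LOC4342573) fell 8.19-fold and IAA10 (LOC4331149) 5.64-fold, the carrier gene PIN5A (LOC4324368) fell at least 7.38-fold, and SAUR39 (LOC9271092) rose at least 4.11-fold. Jasmonate genes were called in 22 of 38 cases (57.9%), 14 lower and 8 higher. Genes of JAZ proteins, which repress jasmonate responses, were among the falls. JAZ13 (LOC4348531) went from 11.17 and 11.25 to 6.89 and 7.18, JAZ10 (LOC4331834) fell 8.59-fold and JAZ9 (LOC4331832) 8.46-fold. CM-LOX2 (LOC4345994), a lipoxygenase gene, was at the floor in pANDA and rose at least 6.71-fold. ACS2 (LOC4336750) of ethylene synthesis rose 2.70-fold.

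Light receptor and clock genes mostly did not pass the test. PhyB (LOC4332623), a phytochrome gene, was the 1 called member of 6, at 5.38 and 5.41 in pANDA and 7.44 and 7.65 in KD lethal. The KD wild-type-like arrays, at 6.49 and 6.08, lay between them. PHYA and phyC had differences of 1.29 (adjusted p = 0.440) and 0.99 (adjusted p = 0.352), and the phototropin genes PHOT1A and PHOT2 of -1.93 and -1.87 (adjusted p = 0.229 and 0.0857). Arrays of the groups did not overlap for any of these genes, as in 69.6% of all genes. CRYD stood between 3.02 and 3.37 in both groups. Of 7 clock genes PRR37 (LOC4344399) fell 1.75-fold (adjusted p = 0.0357), and that call was lost without KD lethal replicate 1 or either pANDA array. CCA1, a morning gene of the clock, stood at 5.72 and 5.62 in pANDA and at 7.11 and 8.50 in KD lethal (adjusted p = 0.0878). PRR73, PRR95, PRR1, GI and PCL1 differed by 0.03 to 0.44. Hour of harvest is not given in the labels.

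Of 12 gibberellin genes 2 rose and 0 fell (16.7% called, against 26.2% of all genes). GA20OX3 (LOC4342505), an enzyme of gibberellin synthesis, stood at 4.11 and 4.46 in pANDA and at 6.43 and 7.24 in KD lethal, and SPY (LOC4346315), an inhibitor of the response, at 4.13 and 4.04 against 5.83 and 5.96. Both calls held with any 1 array left out. The receptor gene gid1 had a difference of 1.70 (adjusted p = 0.108) and GAMYB of 1.15 (adjusted p = 0.102), while SLR1, the DELLA repressor, differed by 0.14. EUI, SLRL1 and GA20OX2 were at the floor in both groups. KAO, CPS1, ks1 and D35 had signals under 4.02 in both groups and no call.

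Of 28 genes of the RNA interference machinery 8 rose and 0 fell (28.6% called, against 26.2% of all genes; median 0.74), and the median of KD wild-type-like minus pANDA was -0.05. Against KD wild-type-like directly, 11 of the 28 were higher in KD lethal and 0 lower. AGO1D (LOC4342138), an Argonaute gene, stood at 3.41 and 3.86 in pANDA, at 4.06 and 3.60 in KD wild-type-like and at 6.61 and 6.98 in KD lethal, 8.94-fold above pANDA (adjusted p = 0.00189). AGO1A (LOC4330281) rose 2.11-fold and SGS3 (LOC4351724), which helps to copy silencing RNA, 2.86-fold. AGO4A and SHL2 rose 1.64-fold and 1.75-fold, PNH1 rose by 1.14 (log2), the DRB2 gene LOC4337826 rose 2.75-fold, and AGO17 rose from the floor by at least 1.25-fold. The count was small without some arrays: 5 without KD lethal replicate 2, 2 without pANDA replicate 1 and 3 without pANDA replicate 2. AGO1D and AGO1A kept their calls with any 1 array left out.

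The other members of this list were not called. DCL2A, a Dicer gene, had arrays at 6.01 and 6.48 in KD lethal against 4.03 and 3.95 in pANDA, a difference of 2.25 (adjusted p = 0.0665). AGO4B, DRB4, AGO1 and the DRB1 gene LOC4351288 had differences of 1.76, 1.41, 1.15 and 1.27. AGO1B, AGO18, DCL4, the DRB1 gene LOC4324620, MEL1, rDRP1, RDR2, RDRS1, AGO2 and DRB5 lay between 0.22 and 0.99. AGO14, DRB3 and RDR4 were at the floor in both groups, AGO3 was at the floor in KD lethal, and the DRB2 gene LOC4347527 had a difference of -1.18 (adjusted p = 0.224).

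**Figure D5:**
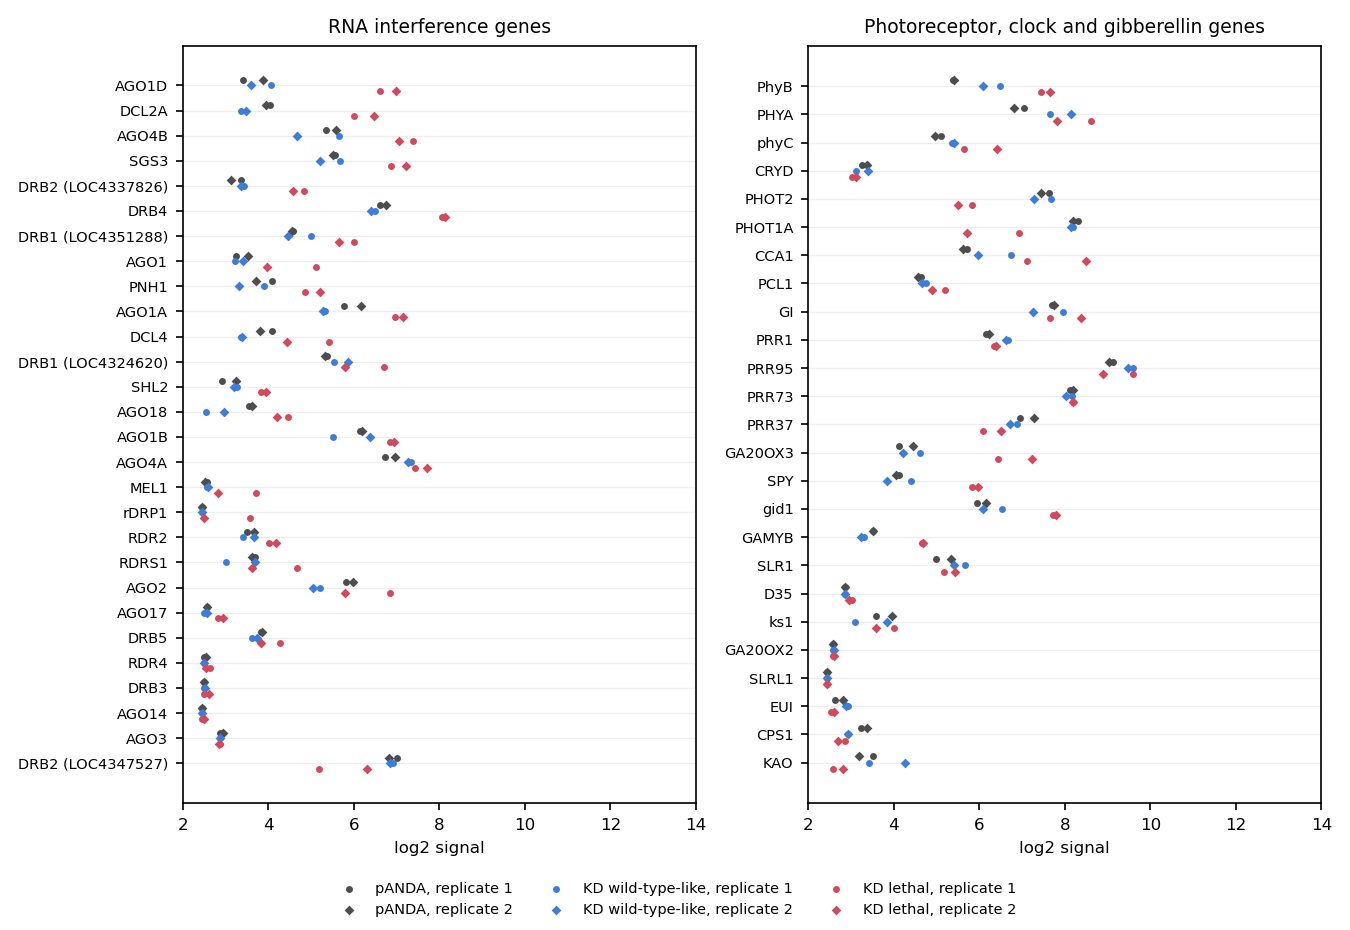
Log2 signal on each array for the 28 RNA interference genes (left) and the photoreceptor, clock and gibberellin genes (right), pANDA in grey, KD wild-type-like in blue and KD lethal in red, circles for replicate 1 and diamonds for replicate 2. In the left panel the red points of AGO1D, DCL2A, SGS3 and DRB4 lie right of the grey and blue points. In the right panel PhyB, GA20OX3 and SPY are the genes called higher and PRR37 the one called lower.

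Of 27 proteasome and ubiquitin genes 10 rose and 0 fell (37.0% called, against 26.2% of all genes; median 0.94), and 5 rose without either pANDA array. PAE1 (LOC4350922), an alpha subunit of the proteasome, stood at 7.71 and 8.0 in pANDA and at 9.59 and 9.81 in KD lethal, and OsRPN11 (LOC4324379), which removes ubiquitin, rose 2.28-fold. Of 25 genes of folding in the endoplasmic reticulum 9 rose and 0 fell (36.0%, median 0.83), and 4 rose without either pANDA array. PDIL5-2 (LOC4335881), a protein disulfide isomerase gene, had nearly equal replicates, 4.85 and 4.85 in pANDA and 6.50 and 6.50 in KD lethal (SE 0.03, adjusted p = 2.99e-05). PDIL2-3 (LOC4347226) rose 3.15-fold, PDIL1-1 (LOC4350002) 2.48-fold and BZIP60 (LOC4344086) 1.60-fold. Small heat shock genes differed among themselves. HSP26.2 (LOC4340508) rose 9.18-fold and HSP18.1 (LOC4332361) 6.10-fold, whereas HSP18.8 (LOC4343386) fell from 10.59 and 10.66 to 7.46 and 6.77. Over the 47 heat shock and chaperone genes 8 rose and 4 fell, near the share in all genes, with 4 and 2 without pANDA replicate 1 and 5 and 2 without pANDA replicate 2. Without KD lethal replicate 1 or 2 the counts were 10 and 2 or 11 and 2.

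Genes of wall loosening were lower more often than higher, while genes of cell division fell at a share near the 11.7% of all genes. Among 30 genes of expansins and xyloglucan enzymes 8 were lower and 1 was higher (30.0% called, against 26.2% of all genes, median -0.71). EXP5 (LOC4330706) went from 8.29 and 8.30 to 5.97 and 5.65, EXPB2 (LOC4349348) fell 7.43-fold and EXPB17 (LOC4336479) 4.38-fold. KD wild-type-like stood between the groups for EXP5 (7.53 and 7.47) and nearer to KD lethal for EXPB2 (3.79 and 3.42, against 5.70 and 5.69 in pANDA and 2.46 and 3.14 in KD lethal). Of 68 cell cycle and replication genes 8 fell and 4 rose (17.6%, below the share in all genes), with 1 rise without either pANDA array and 2 without KD lethal replicate 2. KRP6 (LOC4347280), an inhibitor of cyclin-dependent kinases, fell 11.9-fold. CYCP4-1 (LOC4349405) and CYCD5-3 (LOC4331985) fell 7.56-fold and 2.55-fold. Of 63 cellulose and hemicellulose genes 5 rose and 7 fell, shares no larger than the 14.5% and 11.7% of all genes. With 1 array left out 0 to 3 of the 63 fell and 2 to 5 rose. BC1L6 (LOC4343844) rose 6.07-fold.

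Defence genes were higher in some branches and lower in others. All 5 called genes among 16 of diterpenoid phytoalexin synthesis were higher, against 14.5% of all genes. Of the 16, 7 were at the floor in both groups. CYP701A8 (LOC4341343), a cytochrome P450 gene, stood at 2.98 and 2.94 in pANDA and at 6.87 and 6.02 in KD lethal, and the diterpene synthase gene KSL7 (LOC4329724) rose from the floor by at least 3.72-fold. Without either pANDA array 3 were higher, and 7 without KD lethal replicate 2. PBZ1 (LOC4352491), a marker of defence, rose from 6.44 and 6.77 to 10.22 and 9.71. Chitinase genes went both ways. Cht6 (LOC4329920) fell 17.5-fold from 7.96 and 7.89 and Cht10 (LOC4325148) 2.57-fold, whereas Cht11 (LOC4331519) rose 3.85-fold and Cht-1 (LOC4342115) 3.74-fold. For Cht6 the KD wild-type-like arrays, at 6.07 and 5.64, lay midway. WRKY76 (LOC4347069) fell 15.1-fold and wrky38 (LOC4328512) 4.56-fold, among 3 falls and 0 rises in 6 WRKY genes. Of all genes 11.7% were called lower and 14.5% higher. In lignin synthesis CAD8C (LOC9269515), a cinnamyl alcohol dehydrogenase gene, fell 7.97-fold. The ABC transporter genes ABCG36 (LOC4327728), ABCG48 (LOC4350807) and ABCC13 (LOC4331585) rose 14.5-fold, 11.4-fold and 6.98-fold, with ABCG36 at 3.0 and 2.62 in pANDA and 6.97 and 6.36 in KD lethal. Other genes of that list were called lower, STAR2 (LOC4337635) by 4.8-fold and ABCI12 (LOC4341938) by 2.83-fold.

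Redox genes were called in 34 of 74 cases (45.9%), 16 higher and 18 lower, and in 10 and 15 without KD lethal replicate 2, 7 and 14 without pANDA replicate 1 and 8 and 13 without pANDA replicate 2. Among all genes 26.2% were called. APX8 (LOC4329643), an ascorbate peroxidase of the chloroplast, stood at 9.13 and 9.03 in pANDA and at 4.90 and 4.83 in KD lethal, 18.6-fold lower (adjusted p = 0.000409). Trx25 (LOC4345435), a thioredoxin gene, fell 3.25-fold and the glutaredoxin gene GRXC10 (LOC4351046) at least 3.63-fold.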

How the data were processed

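The authors deposited 1 table of log2 signals per probe set, already normalized. The software was GCOS with Expression Console 1.4.1.46 of Affymetrix, per the submitters' processing notes, and the normalization algorithm was not given in the sources used here. The pANDA and KD arrays form 1 normalized set. Control probe sets (123) were left out of 57381. By the platform annotation 22436 probe sets have 1 gene, 95 several and 34727 no gene. Names came from RefSeq, and 2454 of 17905 genes had one. A gene's probe set with the highest mean stands for it.

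A single limma 3.58.1 model in R 4.3.3 (lmFit, eBayes) covered all 10 arrays with a coefficient per group, 5 residual degrees of freedom and two-sided tests. P-values were adjusted by Benjamini-Hochberg over all 57258 probe sets, and differences at an adjusted p under 0.05 were called, with no fold cutoff. The fit was tested on simulated data.

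The naming rule took the 15 largest rises and falls among called, named genes whose groups do not overlap. It also took the 4 called members with the smallest p of each list, and 4 lists in full. Not every gene that it took is printed, and some lists are not described. Members and lists were chosen with earlier results of these data known. Some further members were named after their values were seen. Replicates share numbers between groups, but replicate differences of pANDA and KD lethal correlated at 0.08, so no pairing was used.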

Additional observations from a re-analysis of the deposited data

How the results depend on the processing

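The count of 7000 probe sets called in KD lethal against pANDA moved by less than 1.5 times under the alternatives run, except in 2 cases. A fit of the 4 arrays alone, which has fewer samples, gave 2786. Leaving out both arrays of low 3' signal (KD lethal replicate 2, OE replicate 1) gave 12596, and the cause was not tested. Between KD lethal and KD wild-type-like 6408 were called, and 1191 with only those 4 arrays. With 1 array left out, the counts were 4959 to 7640 and 5712 to 7128. With the replicate block 5742 and 5152 were called. Replicate numbers carry no label of pairing. With B4NU as the control, whose arrays were normalized in the other set, 10380 were called and 36.7% were higher. A like count did not mean the same probe sets. Of the 7000, 6059 were called in the same direction with quantile normalization over the 10 arrays and 5611 with the replicate block. With only the 6 arrays of the pANDA and KD groups 5066 were, and with B4NU as the control 4684.

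Of 221 called genes that the naming rule takes, 157 kept their call with each single array left out and 64 lost it with at least 1. The count lost was 24 and 38 without KD lethal replicates 1 and 2, and 59 and 56 without pANDA replicates 1 and 2. The block ended 22 calls, quantile normalization 13 and the fit of only 4 arrays 116. No called gene changed direction in any alternative run. A second probe set was available for 43 called genes, and it was called in the same direction for 17 and not called for 26. Of the 15 rises and 15 falls printed first, 8 lost their call in the fit of 4 arrays. The dim filter left 15799 probe sets. Most values lie near the floor, so changes of dim genes are bounds.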

Other observations

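The 3 families and the potassium and sodium genes given first here were called at shares near or below that of all genes (26.2%). Of 49 genes of C3H zinc finger proteins, which bind RNA, 10 rose and 1 fell (22.4% called, median 0.49), and 4 rose without either pANDA array. C3H41 (LOC4340884) rose 3.22-fold and OsC3H24 (LOC4333810) 2.75-fold, while OsC3H54 (LOC4344566) fell 7.83-fold, from 6.88 and 6.45 to 3.77 and 3.62. Chromatin genes gave 6 rises and 1 fall of 26 (26.9% called), with 2 or 3 rises without a pANDA array. The fall was CenH3 (LOC4339159), the centromere histone, which was 2.96-fold lower, and the histone demethylase gene JMJ703 (LOC4338043) rose 2.19-fold. Among 81 genes of calcium-regulated kinases and calmodulin-like proteins 11 rose and 10 fell (25.9%), with 5 and 10 without KD lethal replicate 2, 5 and 8 without pANDA replicate 1 and 6 and 9 without pANDA replicate 2. CML8 (LOC4348517) rose 8.15-fold and CIPK7 (LOC4333514) fell 8.55-fold. Of 32 potassium and sodium genes 6 rose and 0 fell (18.8%), and fewer rose without either pANDA array. The cation exchanger gene CAX2 (LOC4333044) went from 3.83 and 3.60 to 5.87 and 5.65.

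Germin-like genes went both ways. Of 9 genes 5 fell and 2 rose (77.8% called), 4 fell and 1 rose without KD lethal replicate 1, and 2 fell and 1 rose without KD lethal replicate 2 or either pANDA array. GER5 fell 36.7-fold, whereas GER3 (LOC4344838), at the floor in pANDA (2.50 and 2.53) and KD wild-type-like (2.50 and 2.50), stood at 4.67 and 5.50 in KD lethal. The meiosis-linked gene SPO11-3 (LOC4332468) fell 5.30-fold. Many of the largest changes were in genes that the annotation gives no name, as are most genes. Of the 100 largest called falls 11 had a gene name, and of the 100 largest called rises 20, against 2454 of all 17905 genes.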
